A study of Homo sapiens with 9 samples.

Results

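The 10 genes described here encode the machinery that makes microRNAs and loads them onto the proteins that silence messenger RNAs: DROSHA, DGCR8, XPO5, DICER1, TARBP2, AGO1, AGO2, AGO3, AGO4 and TNRC6A. They were chosen by symbol, not by a cutoff on their measured values, from a table of 56809 genes. Earlier results of these data were known when they were chosen. All 10 passed the filter on low counts and are among the 14709 genes tested. Messenger RNA was sequenced from the established breast carcinoma line MDA-MB-468, of human origin, in 3 groups of 3 libraries. Control cells carried the empty lentiviral vector pSicoR, and the other groups carried a short hairpin against LMO2, named shLMO2-1 in the first and shLMO2-2 in the second. LMO2 encodes a LIM-domain adaptor protein of transcription factor complexes. Every group was infected with a pSicoR vector, but control cells were given no hairpin by their labels. The carriage of a hairpin and the lowering of LMO2 therefore cannot be told apart in any comparison with control. Both hairpin groups were compared with the same 3 control libraries. The labels do not say whether libraries of a group came from separate cultures, so p-values measure the spread between these samples.

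A microRNA is cut in the nucleus from a longer transcript by the Microprocessor, in which DROSHA is the nuclease and DGCR8 its RNA-binding partner. Exportin-5, the product of XPO5, carries the resulting hairpin to the cytoplasm, where DICER1, with its partner TARBP2, trims it to a short duplex. One strand is kept by an Argonaute protein (AGO1 to AGO4), which binds TNRC6A or a relative to block and degrade target messages. Short hairpins expressed from a vector use the same route from the export step onward.

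Library totals ranged from 15494486 to 23069456 estimated counts. LMO2, the target of the hairpins, had 4, 35 and 19 counts in the control libraries, 2, 1 and 6 with shLMO2-1, and 1, 4 and 3 with shLMO2-2. In these counts, control replicate 1 overlapped both hairpin groups. Scaled to library size, it overlapped only shLMO2-1. The target was thinly measured everywhere. By edgeR's quasi-likelihood test, LMO2 was lower with shLMO2-2 (log2 fold change −3.02, SE 0.819, adjusted p = 0.0441) and missed the threshold with shLMO2-1 (−2.44, SE 0.813, adjusted p = 0.0907). Control replicate 1 stood apart from the other libraries by transcript length. Its genes with principal transcripts of at least 6000 bases lay 0.35 log2 units above those under 2000 bases, relative to the mean of all libraries. The same difference ran from −0.21 to 0.15 in the other 8 libraries. Every member except TARBP2 has a principal transcript of at least 4514 bases, so results are given with and without that library where it changed a call. In control, the 10 epithelial marker genes summed to 15499 to 16616 CPM (counts scaled to library size). Their sums were 17560 to 18410 CPM with shLMO2-1 and 17024 to 18488 CPM with shLMO2-2. EGFR, which is among them, had 4815 to 7875 CPM over the 9 libraries. The leukocyte markers summed to at most 5.59 CPM, the endothelial markers to at most 17.6 CPM and the fibroblast markers to at most 17.2 CPM.

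XPO5 was the one member that changed in the fit of all 9 libraries with no covariate. It fell by 24.4% with shLMO2-1 and 25.2% with shLMO2-2, and the other 9 genes did not pass the test in any comparison of that fit. AGO4, DICER1, AGO2 or DGCR8 were also called in some alternatives, given with each gene. The members called were 0 higher and 1 lower with shLMO2-1, against 4.54% of all tested genes higher and 3.88% lower. They were likewise 0 higher and 1 lower with shLMO2-2, against 4.94% and 4.04%, and in the mean of both hairpins, against 6.47% and 5.93%. No member differed between shLMO2-2 and shLMO2-1, where 0.347% of genes were higher and 0.422% lower. At an unadjusted p under 0.05, 0 members differed between the hairpins. The median size of the members' log2 change was 0.127 with shLMO2-1 and 0.163 with shLMO2-2, against 0.166 and 0.169 over all genes tested. The median size was thus no larger in the members than in all genes, and 1 called gene of 10 is near the share of all genes called.

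**Figure D1:**
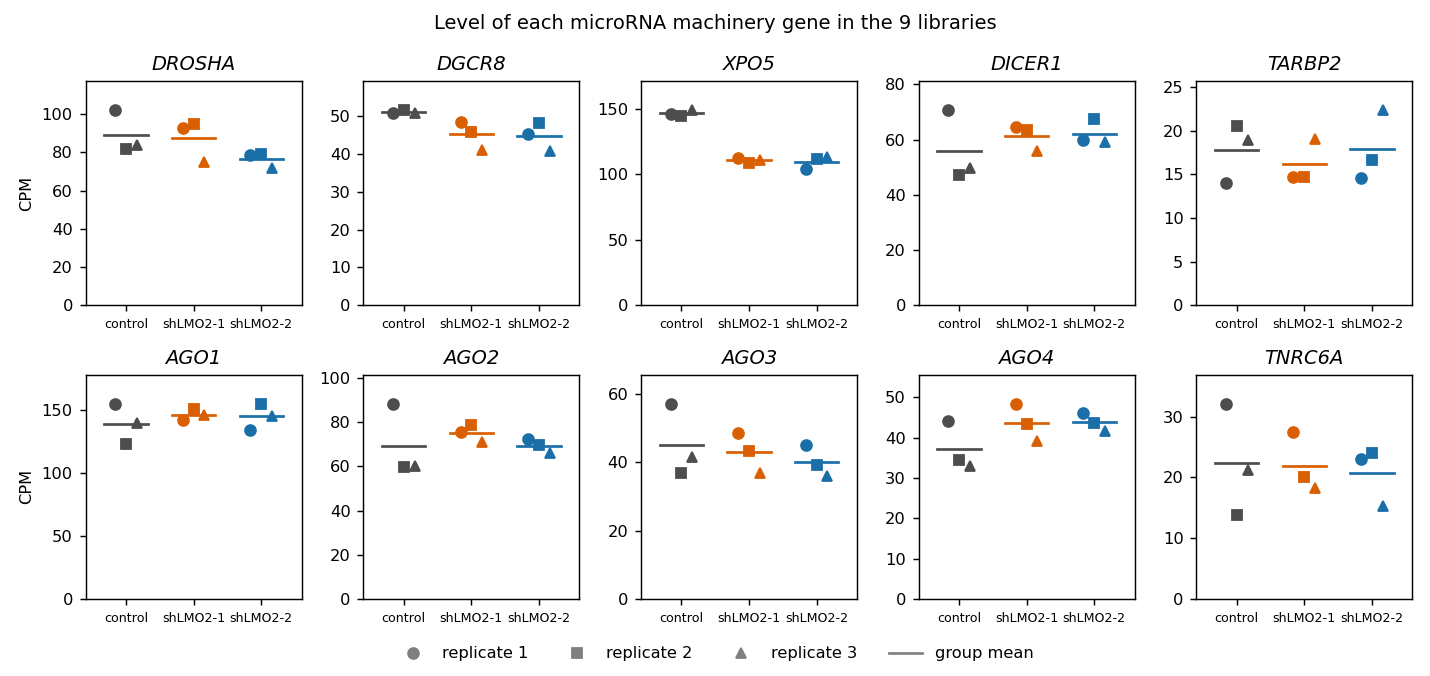
Level of each of the 10 members in CPM (vertical axes, starting at 0) in the 9 libraries, by group; symbols are libraries, by replicate number, and lines are group means. XPO5 lies between 104 and 113 CPM in all 6 hairpin libraries and between 145 and 149 CPM in the 3 control libraries. The hairpin libraries of DGCR8 lie just under its control libraries, and the other 8 genes overlap control in at least 1 hairpin group.

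XPO5 (chr6:43522330-43576075, minus strand, GRCh38) encodes the export receptor for precursor hairpins. Its level was 146, 145 and 149 CPM in control cells, 113, 109 and 111 CPM with shLMO2-1, and 104, 112 and 113 CPM with shLMO2-2. The groups did not overlap, and the highest hairpin library, at 113 CPM, lay well under the lowest control library, at 145 CPM. Group means were 147 ± 2.24 CPM in control, 111 ± 2.01 CPM with shLMO2-1 and 110 ± 4.91 CPM with shLMO2-2 (SD, n = 3 each). By edgeR's quasi-likelihood test, the log2 fold change was −0.40 with shLMO2-1 (95% interval −0.53 to −0.28, adjusted p = 0.00227) and −0.42 with shLMO2-2 (−0.55 to −0.29, adjusted p = 0.00214). The change was of like size with both hairpins: their difference was −0.01 (95% interval −0.14 to 0.11). XPO5 was also the steadiest member within groups, with an SD of 0.0425 log2 units, against a median of 0.126 over 11031 genes of at least 5 CPM. The XPO5 call held without each library in turn and in every other alternative tried, with log2 values of −0.44 to −0.39 for shLMO2-1 and −0.47 to −0.36 for shLMO2-2.

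The XPO5 gene overlaps POLR1C, a subunit of RNA polymerases I and III, on the opposite strand, and the use of strand in the authors' counting is not given in the sources used here. The overlap covers 348 exon bases of XPO5, or 6.49% of its principal transcript. POLR1C, examined after the XPO5 result was seen, had 31.2, 31.3 and 32.7 CPM in control, 25.5, 26.4 and 27.4 CPM with shLMO2-1, and 24.0, 24.8 and 24.3 CPM with shLMO2-2. Its hairpin libraries all lay under its control libraries. By edgeR's quasi-likelihood test it was lower with shLMO2-2 (−0.38, adjusted p = 0.0112), and its value with shLMO2-1 missed the threshold (−0.26, adjusted p = 0.0541; 0.0295 to 0.204 over the alternatives). Reads in the overlap cannot be assigned to one gene from these counts. How much of the XPO5 change lies in the overlap was not tested.

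The promoter of XPO5 is shown because this is the member that changed. The window holds 250 bases upstream of the RefSeq start site (chr6:43576039-43576288, minus strand, GRCh38.p14), 5′ to 3′, and the capitals mark a pair of overlapping matches to the GC box GGGCGG, read on the reverse strand.
XPO5 promoter: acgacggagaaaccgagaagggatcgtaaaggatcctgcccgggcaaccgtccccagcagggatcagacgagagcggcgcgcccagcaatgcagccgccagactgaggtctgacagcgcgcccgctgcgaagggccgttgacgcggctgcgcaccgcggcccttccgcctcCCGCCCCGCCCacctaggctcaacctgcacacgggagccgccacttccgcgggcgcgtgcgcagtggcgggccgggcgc
The window holds 34 CpG dinucleotides, against a median of 11 over 35116 promoter windows of that length. The other members with a window also lay above that median, from 15 for TARBP2 to 48 for DGCR8. On both strands, 8 sequences were searched, chosen after the results were known. The GC box was found in 42.6% of all windows. Those of DROSHA, DGCR8, DICER1, TARBP2, AGO1, AGO3 and TNRC6A also hold it, and that of AGO4 does not. XPO5 had no match to the other sequences: CAGNTG, an E-box of the kind bound with LMO2 (42.5% of windows), AGATAA, bound by GATA factors (9.17%), CACGTG (6.35%), CCAAT (32%), CCGGAAG (8.52%), TATAAA (10.7%) and the core of the NRF1 site (1.03%). These matches describe letters in the window and were not tested as binding sites.

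The nuclear cleavage pair, DROSHA and DGCR8, did not pass the test. DROSHA (chr5:31400497-31532196, minus strand) had 102, 82.0 and 84.1 CPM in control, 92.6, 94.8 and 75.2 CPM with shLMO2-1, and 78.9, 79.0 and 72.0 CPM with shLMO2-2. Its shLMO2-2 libraries all lay under its control libraries, and its shLMO2-1 libraries overlapped them. The log2 fold change was −0.03 (SE 0.106) with shLMO2-1 and −0.22 (SE 0.106) with shLMO2-2, with adjusted p-values of 0.911 and 0.224 in edgeR's quasi-likelihood test. DGCR8 (chr22:20080232-20111877, plus strand) had 50.7, 51.5 and 50.9 CPM in control, 48.5, 45.9 and 41.0 CPM with shLMO2-1, and 45.2, 48.3 and 40.8 CPM with shLMO2-2. All 6 hairpin libraries lay under the 3 control libraries. The size was small: −0.18 (SE 0.0853) and −0.19 (SE 0.0846), with adjusted p-values of 0.236 and 0.194, and 0.129 in the mean of both hairpins. A fit added later, with a replicate block and length and GC trends removed, called DGCR8 with shLMO2-1 (−0.21, adjusted p = 0.0354) and in the mean (−0.20, adjusted p = 0.0194).

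DGCR8 messenger RNA itself carries hairpins that the Microprocessor can cut, a known loop by which the complex limits its own RNA-binding subunit. Their mature microRNAs are shown because they lie in exons of the member whose libraries separated without passing the test. Sequences are RefSeq entries on GRCh38.p14, 5′ to 3′, with the seed (bases 2 to 8) in capitals.
miR-3618 (chr22:20085797-20085818, plus strand, non-coding part of an exon): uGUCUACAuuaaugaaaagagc
miR-1306-5p (chr22:20086072-20086093, plus strand): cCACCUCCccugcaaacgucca
miR-1306-3p (chr22:20086112-20086129, plus strand): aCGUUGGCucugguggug
The MIR1306 hairpin overlaps the coding sequence of DGCR8. Polyadenylated RNA was sequenced, so the mature microRNAs were not measured. An antisense gene, AC006547.2, shares 522 exon bases with DGCR8, or 11.6% of its principal transcript, and failed the filter on low counts.

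DICER1 and TARBP2 act at the cytoplasmic cut. DICER1 (chr14:95086228-95158010, minus strand), the nuclease, had 70.6, 47.3 and 49.6 CPM in control, 64.4, 63.6 and 55.8 CPM with shLMO2-1, and 60.0, 67.3 and 59.1 CPM with shLMO2-2. Control replicate 1 was the highest of the 9 libraries, and the other 2 control libraries were the lowest. With all libraries the log2 fold change was 0.14 (SE 0.136, adjusted p = 0.597) with shLMO2-1 and 0.16 (SE 0.135, adjusted p = 0.524) with shLMO2-2, by edgeR's quasi-likelihood test. Without control replicate 1, DICER1 was called higher with shLMO2-1 (0.33, adjusted p = 0.0390) and with shLMO2-2 (0.35, adjusted p = 0.0353). With trends on transcript length and GC content removed from all libraries, an alternative added after the data were seen, it was called with shLMO2-2 (0.31, adjusted p = 0.0236) and not with shLMO2-1 (0.21, adjusted p = 0.101). TARBP2 (chr12:53500921-53506431, plus strand), the double-stranded RNA-binding partner, had 14.0, 20.6 and 18.9 CPM in control, 14.7, 14.7 and 19.1 CPM with shLMO2-1, and 14.6, 16.6 and 22.3 CPM with shLMO2-2. It has the shortest principal transcript of the 10, 1867 bases, and control replicate 1 was its lowest library. Its groups overlapped, with adjusted p-values of 0.694 and 0.999.

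The 3′ untranslated region of DICER1 is a known target of miR-103a and miR-107, which share a seed and arise from introns of the PANK genes of coenzyme A synthesis. They are shown with the DICER1 sites that match the seed, which the capitals mark in each. The microRNAs are RefSeq entries (GRCh38.p14), and the sites come from the principal transcript in GENCODE 29 (GRCh38), minus strand.
miR-103a-3p (chr5:168560904-168560926, minus strand, in PANK3): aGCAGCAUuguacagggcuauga
miR-107 (chr10:89592756-89592778, minus strand, in PANK1): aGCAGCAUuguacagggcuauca
DICER1 site chr14:95089457-95089479: tatcacacctaaaatATGCTGCa
DICER1 site chr14:95088856-95088878: ttgatgcttcgtggaATGCTGCa
DICER1 site chr14:95087652-95087674: tccgcagtcctaactATGCTGCg
DICER1 site chr14:95086381-95086403: aatatttaccatcacATGCTGCa
DICER1 site chr14:95086329-95086351: attcatacagtaatcATGCTGCa
The region of 4270 bases holds 5 matches to ATGCTGC. Of 1717 such regions within 25% of that length, 28% hold at least 1 match and 0.117% hold as many. It holds no match to CTACCTC, the complement of the let-7a seed, which 21.3% of those regions hold. The host genes moved little in the mean of both hairpins: the log2 fold change was 0.07 for PANK1, −0.08 for PANK2 and 0.01 for PANK3, none called. Host messages are not a measure of the microRNAs, which poly(A) selection leaves out.

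The 4 Argonaute genes encode the proteins that hold the guide strand, and AGO2 is the one known as a slicer of fully paired targets, as in short-hairpin knockdown. AGO2 (chr8:140520156-140635619, minus strand) had 88.2, 59.7 and 60.2 CPM in control, 75.7, 78.7 and 71.1 CPM with shLMO2-1, and 72.2, 69.5 and 66.0 CPM with shLMO2-2. All hairpin libraries lay between control replicate 1 and the other 2 control libraries. With all libraries, AGO2 did not pass edgeR's quasi-likelihood test with shLMO2-1 (0.12, SE 0.131, adjusted p = 0.636) or with shLMO2-2 (−0.00032, adjusted p = 0.999). Without control replicate 1 it was called higher with shLMO2-1 (0.32, adjusted p = 0.0193) and in the mean of both hairpins (0.26, adjusted p = 0.0261), but not with shLMO2-2 (0.20, adjusted p = 0.114). AGO2 and DICER1 thus shared the library pattern in which a single control set the sign or size of the difference.

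AGO4, AGO1 and AGO3 stand next to each other on the plus strand of chromosome 1 (AGO4 chr1:35808172-35857890, AGO1 chr1:35869808-35930528, AGO3 chr1:35930718-36072500). AGO4 had 44.1, 34.5 and 33.0 CPM in control, 48.3, 43.5 and 39.2 CPM with shLMO2-1, and 46.2, 43.7 and 41.7 CPM with shLMO2-2. Here too the hairpin libraries lay above control replicates 2 and 3, while control replicate 1 overlapped them. With all libraries AGO4 had log2 values of 0.23 (SE 0.116, adjusted p = 0.249) and 0.24 (SE 0.115, adjusted p = 0.228) in edgeR's quasi-likelihood test. Without control replicate 1 they were 0.36 (adjusted p = 0.0382) and 0.37 (adjusted p = 0.0401). With the length and GC trends removed they were 0.27 (adjusted p = 0.0461) and 0.34 (adjusted p = 0.0171). The replicate block called AGO4 with shLMO2-2 (0.25, adjusted p = 0.0480).

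These calls stand beside the background of their own fit. Without control replicate 1, 4 members were called with shLMO2-1 where 5% of all genes were higher and 4.33% lower, 3 with shLMO2-2 (3.82% and 3.73%), and 4 in the mean (5.32% and 5.31%). With trends removed, 2 members were called with shLMO2-1 (5.86% and 4.36%), 3 with shLMO2-2 (5.77% and 3.87%) and 3 in the mean (7.81% and 5.53%). With the replicate block the members called were 1 with shLMO2-1 (8.2% and 6.85%), 2 with shLMO2-2 (8.84% and 7.32%) and 2 in the mean (10.8% and 9.75%). With the block and trends removed together they were 3 (9.8% and 7.72%), 3 (10.9% and 7%) and 4 (12.6% and 9.16%). XPO5 is among the members called in each.

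Neither neighbour of AGO4 in the cluster passed the test. AGO1 had 154, 122 and 139 CPM in control, 141, 151 and 145 CPM with shLMO2-1, and 134, 154 and 145 CPM with shLMO2-2. All shLMO2-1 libraries and 2 of the shLMO2-2 libraries lay above control replicates 2 and 3, and control replicate 1 was among the highest. The log2 values were 0.07 (adjusted p = 0.657) and 0.06 (adjusted p = 0.713) in edgeR's quasi-likelihood test, and 0.15 and 0.14 without control replicate 1, not called. AGO3 had 57.0, 36.9 and 41.5 CPM in control, 48.5, 43.4 and 36.9 CPM with shLMO2-1, and 45.0, 39.1 and 36.1 CPM with shLMO2-2. Its highest value was again control replicate 1, and the groups overlapped (−0.07, adjusted p = 0.839, and −0.17, adjusted p = 0.549).

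TNRC6A (chr16:24610209-24827632, plus strand), the scaffold that joins Argonaute to the deadenylases, varied most within groups, with an SD of 0.443 log2 units. It had 32.1, 13.7 and 21.2 CPM in control, 27.5, 20.1 and 18.3 CPM with shLMO2-1, and 23, 24.0 and 15.4 CPM with shLMO2-2. Both the highest and the lowest of the 9 libraries were controls. The log2 values were −0.02 (SE 0.277, adjusted p = 0.978) and −0.10 (adjusted p = 0.860) by edgeR's quasi-likelihood test, and leaving out single libraries turned their sign. With an SE of this size, a change like that of XPO5 could not be told from 0.

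**Figure D2:**
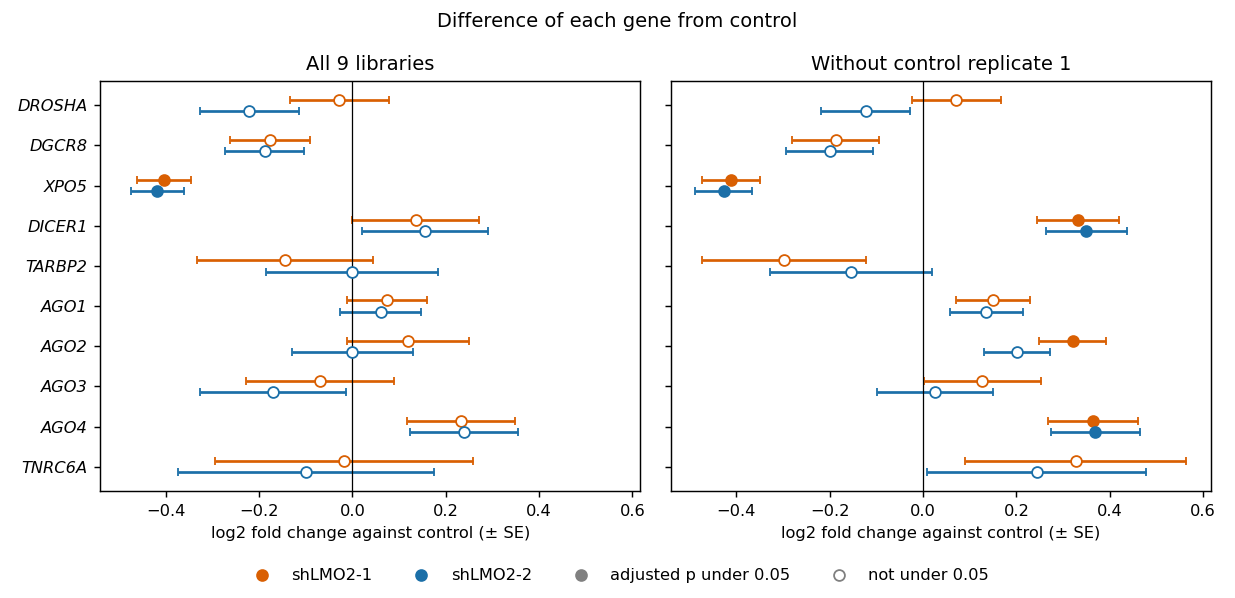
Log2 fold change of each member against control (horizontal axis) with its SE, for shLMO2-1 and shLMO2-2, from all 9 libraries and without control replicate 1; filled symbols passed an adjusted p of 0.05. XPO5 stays near −0.4 in both fits, while DICER1, AGO2 and AGO4 move to between 0.20 and 0.37 when that control is left out.

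DROSHA, DICER1, AGO2, AGO3 and TNRC6A, 5 of the 10, were highest in control replicate 1, as were 23.6% of the genes of at least 5 CPM. The deviations of the members in each library are shown beside that library's long-minus-short difference. Transcript length moved with the library, and its part in the results of DICER1, AGO2 and AGO4 was not tested beyond the fits without that library and with trends removed. For XPO5, the change was −0.41 with shLMO2-1 (adjusted p = 0.00253) and −0.43 with shLMO2-2 (adjusted p = 0.00241) without control replicate 1, close to its value with all libraries.

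**Figure D3:**
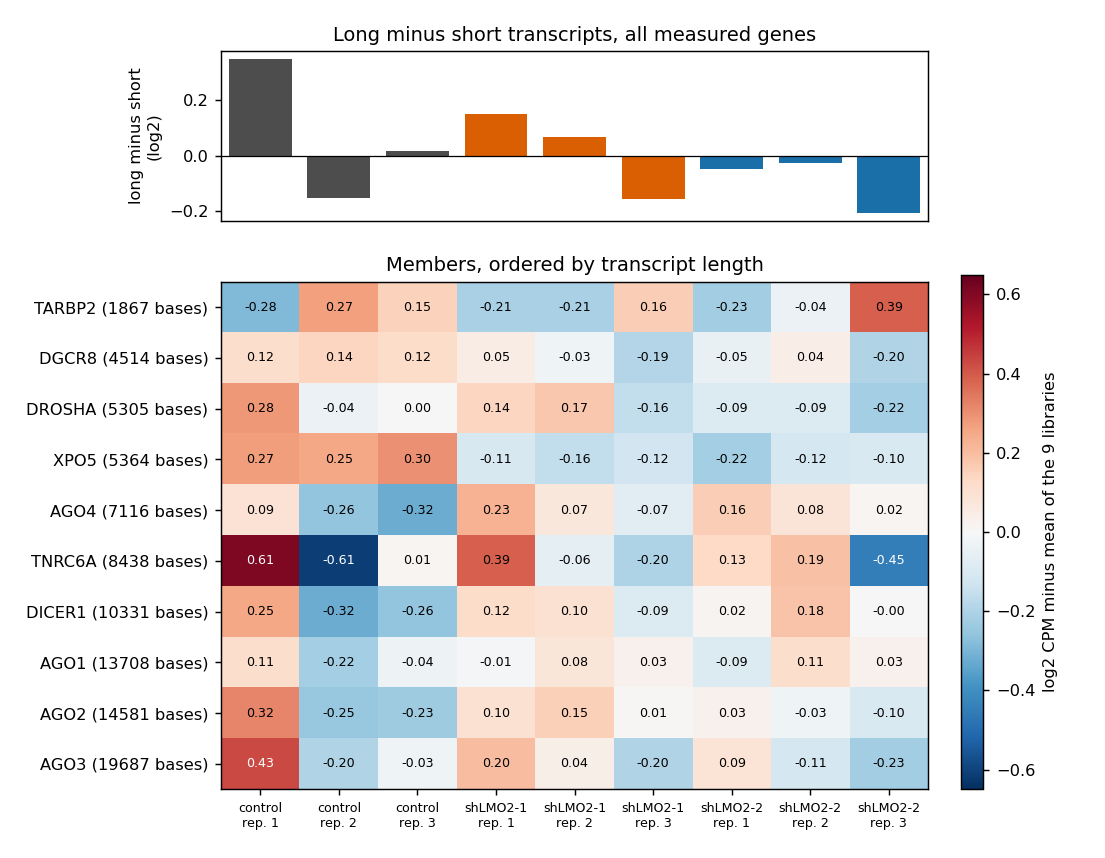
Top, the median log2 deviation of genes with long transcripts (6000 bases or more) minus that of genes with short ones (under 2000 bases) in each library; bottom, the log2 deviation of each member from its mean over the 9 libraries, as colour. Control replicate 1 has the highest bar, 0.35, and the highest value of 5 members.

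Levels between genes were compared per kilobase of principal transcript, in control cells, as mean ± SD of 3 libraries. XPO5 stood highest at 27.4 ± 0.417 CPM per kilobase, followed by DROSHA at 16.8 ± 2.08 and DGCR8 at 11.3 ± 0.0927. AGO1 at 10.1 ± 1.16 and TARBP2 at 9.54 ± 1.84 came next. The libraries of DGCR8, AGO1 and TARBP2 overlapped between neighbours in that order. DICER1 (5.41 ± 1.24), AGO4 (5.23 ± 0.84) and AGO2 (4.76 ± 1.12) overlapped likewise, as did TNRC6A (2.65 ± 1.09) and AGO3 (2.29 ± 0.536), the lowest by this length. By this length the export receptor was thus the highest message of the set in control cells. It remained so with the hairpins, at 20.7 and 20.5 CPM per kilobase. In CPM not divided by length, the mean of XPO5 stood above that of AGO1 in control (147 against 139). Their control libraries overlapped, with AGO1 at 154 CPM and XPO5 at 146 CPM in control replicate 1. By the same measure AGO1 stood above XPO5 with shLMO2-1 (146 against 111) and shLMO2-2 (145 against 110). Which transcripts these cells use was not measured. With the length of all merged exons in place of the principal transcript, XPO5 stayed first at 17.2 and DROSHA next at 11.5, but AGO1 (9.98) stood above DGCR8 (6.98), AGO4 (5.12) above DICER1 (4.54), TARBP2 moved down to place 8 (4.36), and TNRC6A (1.73) stood below AGO3 (2.13). Of the summed Argonaute level per kilobase, AGO1 made up 41.6% to 48.3% over the 9 libraries, AGO4 22.1% to 27.6%, AGO2 19.6% to 22.9% and AGO3 8.04% to 11%. The order of AGO4 and AGO2 depended on the division by length. Of the summed CPM, AGO1 made up 44.9% to 50.8%, AGO2 22.0% to 25.7%, AGO3 12.5% to 16.6% and AGO4 12.1% to 15.5%. AGO1 was the highest of the 4 Argonaute messages in every library.

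**Figure D4:**
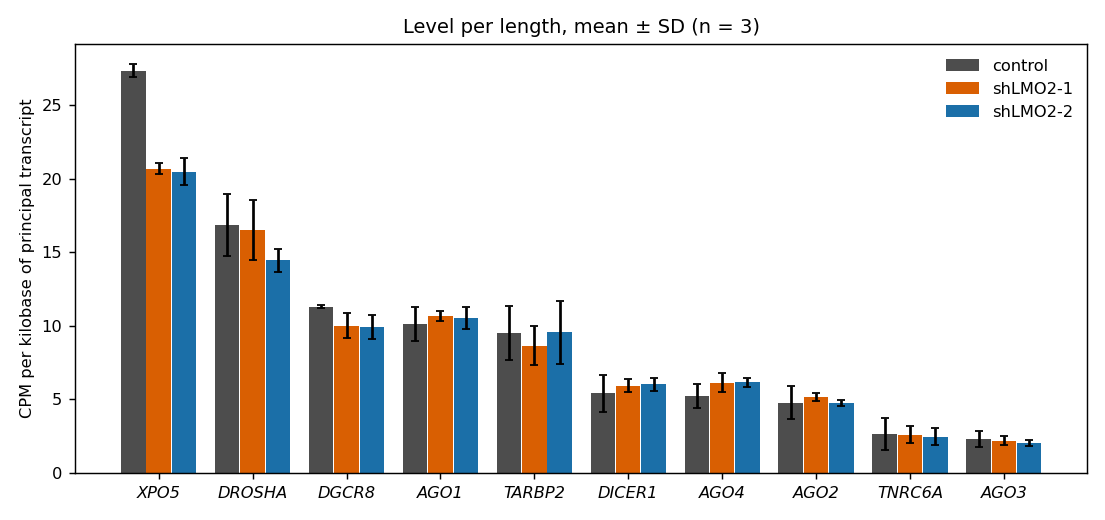
Level of each member in CPM per kilobase of principal transcript (vertical axis, starting at 0), as bars of group means with SD over 3 libraries, by group. XPO5 is highest in all groups, between 20.5 and 27.4 as group means, and AGO3 and TNRC6A are lowest.

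For DICER1 and AGO2, the genes most like them in pattern were found among 11030 others of at least 5 CPM, by the root mean square difference of centred log2 CPM over the 9 libraries. DICER1 was nearest to PLXNA3 (0.0515), LCOR (0.0606) and DAB2IP (0.0635), where the median of all candidates was 0.237. Genes near AGO2 were KLF13 (0.0521) and TANC2 (0.0569), where the median was 0.226. These distances describe 9 shared libraries, in which control replicate 1 is high for both genes.

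Other genes of the pathway were described by lists of their roles, in the mean of both hairpins unless another comparison is named. Each count stands beside 6.47% of all tested genes higher and 5.93% lower in that comparison. Of 14 cofactors of nuclear cleavage, 2 were higher and 0 lower, with a median log2 change of −0.03, against 0.00 to 2 decimals over all genes. These were HNRNPA1, an RNA-binding protein known to aid cleavage of particular hairpins (0.19, adjusted p = 0.0161 by edgeR's quasi-likelihood test), and ERH, a Microprocessor-associated protein (0.32, adjusted p = 0.0343). The ERH call was lost without control replicates 1 or 3, replicates 2 or 3 of shLMO2-1, or replicates 2 or 3 of shLMO2-2 (adjusted p 0.0541 to 0.0966). Of 7 genes of nuclear export and import, 1 was higher and 1 lower, beside 6.47% and 5.93% of all genes. NUP153, a nuclear pore protein, was lower (−0.28, adjusted p = 0.0101). IPO8, an import receptor that also binds Argonautes, was higher (0.34, adjusted p = 0.0223), and its call was lost when control replicate 2 (0.0757) or 3 (0.0538), or replicate 2 of shLMO2-1 (0.0541), was left out. RAN, the GTPase that exportin-5 uses, was −0.11 (adjusted p = 0.316). XPO5 is not counted in these lists.

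Of 12 tested partners of DICER1 and factors of precursor tailing and decay, 1 was higher and 0 lower, beside 6.47% and 5.93% of all genes. SND1, a nuclease found with the silencing complex, was 0.24 (adjusted p = 0.0327 by edgeR's quasi-likelihood test), a call lost without control replicates 1 or 3, or replicates 2 or 3 of either hairpin group (adjusted p 0.0634 to 0.0919). PRKRA, the paralogue of TARBP2 that also binds DICER1, was −0.07 (adjusted p = 0.459).

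Argonaute proteins take up small RNA duplexes with the help of the HSP90 chaperone system, and 4 of 14 genes of that list were lower and 1 higher, beside 5.93% and 6.47% of all genes. HSP90AB1, a constitutive HSP90, was among the most abundant genes named here. It had 1769, 1832 and 1826 CPM in control, 1407, 1416 and 1404 CPM with shLMO2-1, and 1410, 1457 and 1500 CPM with shLMO2-2. Its groups did not overlap, with log2 values of −0.36 (adjusted p = 0.000870) and −0.31 (adjusted p = 0.00227) by edgeR's quasi-likelihood test. FKBP5, an HSP90 co-chaperone, had 101, 101 and 95.4 CPM in control, 84.5, 80.0 and 77.4 CPM with shLMO2-1, and 75.8, 77.1 and 70.4 CPM with shLMO2-2. It was also lower in every hairpin library, by −0.35 in the mean (adjusted p = 0.00277). Of the genes named from the lists, HSP90AB1, FKBP5 and CTDSPL kept their call in the mean in all 21 alternatives, as XPO5 did. DNAJA2, an HSP40 (−0.25, adjusted p = 0.0101), lost its call without control replicate 3 (0.0611) and with length and GC trends removed (−0.16, adjusted p = 0.0816). The other lower gene, HSPA4, an HSP110 chaperone named after its value was seen, was −0.19 (adjusted p = 0.0378), lost without control replicates 2 or 3, replicates 1 or 3 of shLMO2-1, or any replicate of shLMO2-2 (0.0504 to 0.117). Its call was also lost with no filter on low counts (0.0643) and with trends removed (−0.11, adjusted p = 0.280), with the block as well (−0.11, adjusted p = 0.121). CDC37, a co-chaperone that brings kinases to HSP90, was higher (0.22, adjusted p = 0.0200), a call lost without control replicate 1 (0.0557) or 3 (0.0652).

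A further list held genes that modify Argonautes or set their turnover, and 0 were called lower in the fit of all 9 libraries. EGFR, a receptor kinase known to phosphorylate AGO2 and abundant in this line, rose with shLMO2-1 (0.46, adjusted p = 0.0123 by edgeR's quasi-likelihood test), a call lost when control replicate 3 (0.0501) or replicate 2 of shLMO2-1 (0.0602) was left out. With shLMO2-2, EGFR was 0.13 (adjusted p = 0.414), but it was called with length and GC trends removed (0.22, adjusted p = 0.0360) and with the replicate block as well (0.22, adjusted p = 0.00640). In the fit with no covariate, the difference between the hairpins was −0.33 (adjusted p = 0.167). In the mean of both hairpins EGFR was 0.29 (adjusted p = 0.0344), a call lost without control replicates 2 or 3, replicates 1 or 2 of shLMO2-1, or replicates 2 or 3 of shLMO2-2 (adjusted p 0.0566 to 0.12) or with total-count scaling (0.0753).

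Of 37 tested silencing effectors, 1 was higher and 2 lower, beside 6.47% and 5.93% of all genes. PABPC1, the poly(A)-binding protein that TNRC6 proteins contact, was 0.16 (adjusted p = 0.0187 by edgeR's quasi-likelihood test), lost without control replicate 3 (0.0793) or shLMO2-2 replicate 2 (0.0583), or with total-count scaling (0.11, adjusted p = 0.0598). CNOT1, the scaffold of the CCR4-NOT deadenylase, was −0.19 (adjusted p = 0.0323), lost without control replicate 3, replicates 1 or 3 of shLMO2-1, or replicates 1 or 2 of shLMO2-2 (adjusted p 0.0529 to 0.131), and with length and GC trends removed (−0.14, adjusted p = 0.210). TNRC6C and TNRC6B, the relatives of TNRC6A, were not tested against each other. TNRC6C had 12.9, 7.53 and 8.56 CPM in control, 6.13, 6.21 and 4.81 CPM with shLMO2-1, and 8.0, 6.41 and 5.98 CPM with shLMO2-2. Its mean change of −0.63 (adjusted p = 0.0434) was −0.37 without control replicate 1 (adjusted p = 0.167) and its call was also lost without control replicate 3, any replicate of shLMO2-1, or replicates 2 or 3 of shLMO2-2 (0.0619 to 0.0878). TNRC6B was −0.02 (adjusted p = 0.950).

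Of 16 tested sensors of double-stranded RNA, 0 were higher and 2 lower, beside 6.47% and 5.93% of all genes, with a median of −0.15. OAS3, which makes the activator of RNase L, was −0.34 (adjusted p = 0.0132 by edgeR's quasi-likelihood test), and IFIH1, the cytoplasmic sensor MDA5, was −0.27 (adjusted p = 0.0151). Both calls were lost without control replicate 3 (0.0628 for OAS3, 0.0606 for IFIH1), and that of IFIH1 also with no filter on low counts (0.0518). TLR3, the endosomal sensor, was called with shLMO2-1 (−1.08, adjusted p = 0.0429) and not in the mean (−0.76, adjusted p = 0.0602). Its shLMO2-1 call was lost without control replicates 2 or 3, any replicate of shLMO2-1, or replicates 1 or 2 of shLMO2-2 (0.0552 to 0.150), and its mean was called without control replicate 1 (−0.98, adjusted p = 0.0182). The list had 4 genes lower without control replicate 1 and 0 without control replicate 3. None of the 4 PIWI genes passed the filter on low counts. Between shLMO2-2 and shLMO2-1, 0 genes of these lists were called in the fit with no covariate. In alternatives, 1 gene of the Argonaute turnover list was called without control replicate 1, with no filter on low counts, with only the groups compared, and with the block and trends removed. The last of these also called 1 gene each of the loading, double-stranded RNA and host gene lists.

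**Figure D5:**
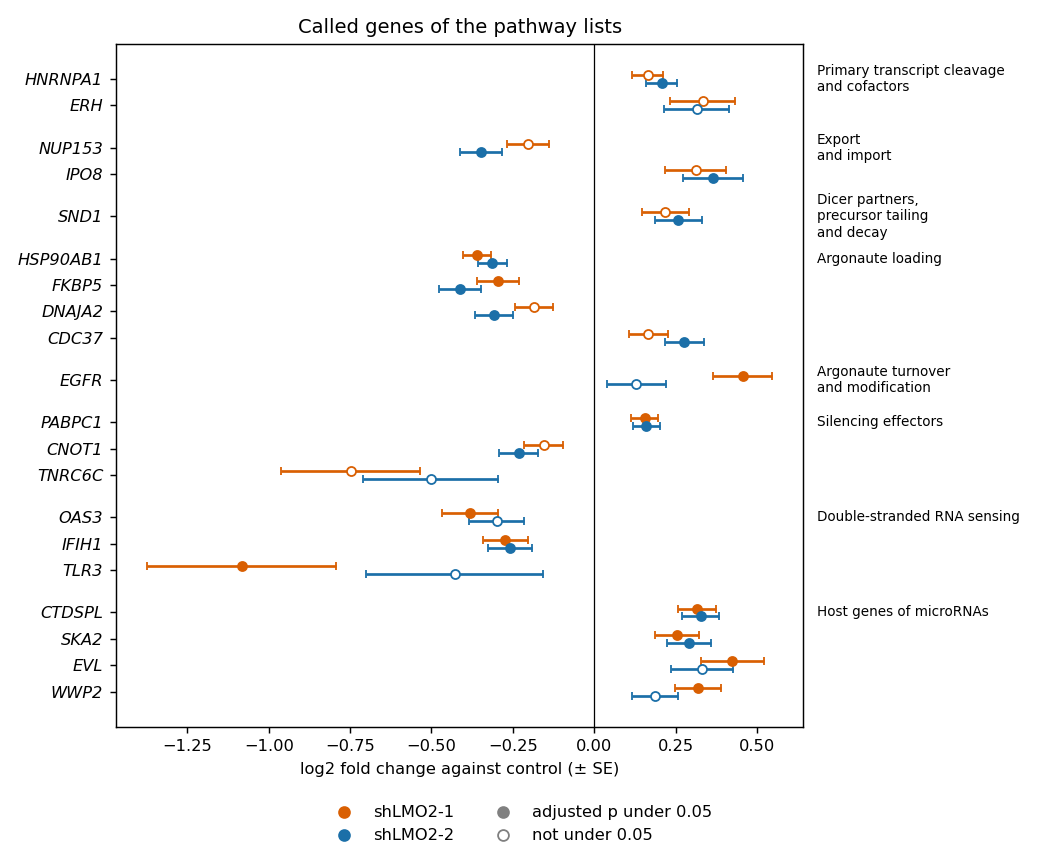
Log2 fold change against control (horizontal axis) with SE, for each hairpin, of the genes named from the pathway lists that were called in at least 1 comparison; filled symbols passed an adjusted p of 0.05. HSP90AB1 and FKBP5 lie below 0 and CTDSPL above 0 with both hairpins.

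MicroRNAs often lie in introns of protein-coding genes. Of 29 tested host genes, 6 were higher in the mean of both hairpins, 20.7% beside 6.47% of all genes, and 0 were lower. The median was 0.09, and 21 of the 29 had a positive value. By hairpin, 5 were higher with shLMO2-1, beside 4.54% of all genes, and 2 with shLMO2-2, beside 4.94%. With either hairpin, 0 were lower. In the mean, leaving out control replicate 1 left 4 hosts called higher, beside 5.32% of all genes higher in that fit. Leaving out control replicate 3 left 2, beside 3.38%, and removing length and GC trends left 3, beside 7.81%. Over all left-out libraries the count ran from 2 to 5, with 0 lower throughout, beside 3.38% to 5.52% of all genes higher. CTDSPL, a phosphatase gene that hosts MIR26A1, had 98.1, 106 and 105 CPM in control, 130, 128 and 128 CPM with shLMO2-1, and 128, 131 and 130 CPM with shLMO2-2. Its groups did not overlap, with log2 values of 0.32 (adjusted p = 0.00823) and 0.33 (adjusted p = 0.00668) by edgeR's quasi-likelihood test. SKA2, a kinetochore gene that hosts MIR454 and MIR301A, was 0.27 (adjusted p = 0.0144), lost without control replicate 3 (0.0647). EVL, an actin regulator that hosts MIR342, was 0.38 (adjusted p = 0.0160), also lost without control replicate 3 (0.0750). WWP2, a ubiquitin ligase that hosts MIR140, was 0.25 (adjusted p = 0.0239), lost without control replicates 1 or 3, shLMO2-1 replicate 2, or replicates 2 or 3 of shLMO2-2 (0.0510 to 0.101), or with trends removed (0.0518). The remaining higher hosts, named after their values were seen, were CTDSP1 and SREBF2. CTDSP1, which hosts MIR26B, was 0.25 (adjusted p = 0.0362), lost without control replicates 1 or 2, any replicate of shLMO2-1, or replicates 2 or 3 of shLMO2-2 (0.0585 to 0.107). SREBF2, a sterol regulator that hosts MIR33A, was 0.17 (adjusted p = 0.0276), lost without control replicates 2 or 3, replicates 1 or 2 of shLMO2-1, or any replicate of shLMO2-2 (0.0514 to 0.100). Both calls were also lost with total-count scaling (0.0663 for CTDSP1, 0.0856 for SREBF2), with no filter on low counts (0.0545 and 0.0764), with trends removed (0.110 and 0.0920) and with the block as well (0.0794 and 0.0529). With trends removed the log2 values were 0.17 for CTDSP1 and 0.11 for SREBF2. CTDSP2, another host of the miR-26 family, was 0.09 (adjusted p = 0.281).

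For each microRNA hairpin in these 6 host genes, a single mature strand is shown, because some of these strands share a seed. Sequences are RefSeq entries on GRCh38.p14, 5′ to 3′, with the seed in capitals.
miR-26a-5p (CTDSPL, chr3:37969413-37969434, plus strand): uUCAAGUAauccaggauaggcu
miR-26b-5p (CTDSP1, chr2:218402657-218402677, plus strand): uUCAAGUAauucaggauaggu
miR-454-3p (SKA2, chr17:59137787-59137809, minus strand): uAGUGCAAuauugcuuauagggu
miR-301a-3p (SKA2, chr17:59151149-59151171, minus strand): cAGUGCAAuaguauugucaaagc
miR-342-3p (EVL, chr14:100109715-100109737, plus strand): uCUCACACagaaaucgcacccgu
miR-140-3p (WWP2, chr16:69933142-69933162, plus strand): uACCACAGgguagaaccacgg
miR-33a-5p (SREBF2, chr22:41900949-41900969, plus strand): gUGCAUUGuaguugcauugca
The pair from CTDSPL and CTDSP1 share a seed, and the pair from SKA2 share another. Matches to the seeds shown, chosen after the results were known, were searched in the 3′ untranslated region of XPO5 (1538 bases). The region was not searched for the seeds of the other strands. It holds 1 match, to the seed shared by miR-454 and miR-301a, at chr6:43523783-43523805 on the minus strand.
XPO5 site, capitals marking the match: atctctaggcccttcTTGCACTg
That sequence occurs in 13.0% of 2938 regions of like length. It is not particular to XPO5 among the members. The region of AGO2 holds it 6 times, that of AGO3 5, DICER1 3, AGO1 3, AGO4 2 and TNRC6A 1. Whether the match bears on the level of any of these genes was not tested. The regions of DROSHA, DGCR8 and TARBP2 hold 0 matches. The level of these microRNAs and the use of the site were not measured.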

How the data were processed

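Poly(A)-selected RNA of 9 libraries (3 per group, grouped by the plasmid in their labels) was sequenced. The authors deposited estimated counts per gene. The submitters' processing notes name Salmon 0.12, DESeq2 1.22.2 and GRCh38.p12, without their roles; the annotation and strand setting are not given in the sources used here. Estimated counts were rounded and tested with edgeR 4.0.16 (R 4.3.3): TMM scaling, a filter on low counts (minimum count 10, total 15; LMO2 added back) that kept 14709 genes with 99.9% of counts, and a quasi-likelihood fit of all 9 libraries. P-values were adjusted by Benjamini-Hochberg over all tested genes, with a threshold of 0.05. CPM are scaled by TMM, except those of the cell type markers, which are scaled to the total counts of each library. The fit was tested on data simulated with known changes for shLMO2-1. It called 35.8% of 67 genes changed 1.3-fold, 74.6% of 67 changed 1.5-fold and 98.5% of 66 changed 2-fold, in the right direction. There it also called 13 unchanged genes, and it called 0 genes with shLMO2-2, simulated without a change. Loci and transcripts came from GENCODE 29 and sequences from RefSeq (GRCh38.p14). Splitting of reads between similar or overlapping genes can move counts.

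The members and lists were chosen with earlier results of these data known. Named were the members, LMO2, TNRC6B, TNRC6C and PRKRA, up to 4 called genes per list by smallest p, and the 3 genes most like DICER1 and AGO2, except items that are not reported here. Alternatives covered scaling, filter, limma-voom 3.58.1, DESeq2 1.42.0, the groups fitted, a replicate block, the threshold and left-out libraries.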

Additional observations from a re-analysis of the deposited data

How the results depend on the processing

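XPO5 kept its direction and call against control in all 21 alternatives. The genes called in the main fit were 1239 with shLMO2-1, 1320 with shLMO2-2, 1823 in the mean of both hairpins, and 113 for shLMO2-2 against shLMO2-1. The genes called between the hairpins became 378 with no filter on low counts, 316 with DESeq2 and 173 with length and GC trends removed (added after seeing the data). Only the groups compared in the fit gave 695, 776 and 189 genes called for shLMO2-1, shLMO2-2 and the hairpins against each other. An adjusted p under 0.01 gave 353, 390, 623 and 46 genes called in the 4 comparisons. Leaving out single libraries gave 546 to 1397, 494 to 1243, 947 to 1592 and 38 to 239 genes called; the lowest were without shLMO2-1 replicate 3, shLMO2-2 replicate 2, control replicate 3 and shLMO2-1 replicate 2. Total-count scaling gave 793 genes higher and 1284 lower in the mean, against 951 and 872 with TMM, with a shift of −0.05 in the median of all genes. It gave 561 and 781 with shLMO2-1, against 668 and 571, and 568 and 833 with shLMO2-2, against 726 and 594.

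The replicate block gave 2214, 2377, 3024 and 257 genes called, and 2 members called with shLMO2-2 and in the mean, where AGO4 joined XPO5 (0.25, adjusted p = 0.0480, and 0.24, adjusted p = 0.0259). The labels do not say whether replicate numbers pair the samples, and the main fit did not use them. Correlations of same-numbered libraries ran from −0.063 to 0.296 and of others from −0.308 to 0.182. These ranges overlapped, but 8 of 9 libraries correlated best with their own number. What same-numbered libraries share was not tested. The replicate block with length and GC trends removed (also added) gave 2576, 2632, 3202 and 501 genes called and 3, 3 and 4 members called against control. Trends removed alone gave 2, 3 and 3 members called. Leaving out single libraries gave 1 to 4, 1 to 3 and 1 to 4 members called, where without control replicate 1 gave the highest values.

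Members that had not passed the test changed sign in places, and the causes were not tested. AGO2 with shLMO2-2 was 0.0022 with upper-quartile scaling, 0.0076 with no filter, 0.028 with limma-voom, 0.013 with the replicate block, and 0.11 with trends removed, with or without the block. TARBP2 with shLMO2-2 was 0.0042 with no filter. TNRC6A with limma-voom was 0.062 with shLMO2-1 and 0.015 in the mean. With trends removed, DROSHA was 0.0060 with shLMO2-1, TNRC6A was 0.015, 0.0093 and 0.012 with shLMO2-1, shLMO2-2 and in the mean, and TNRC6B was 0.0023 with shLMO2-2 and 0.024 in the mean. With the block as well, DROSHA was 0.0042, TNRC6A was 0.020, 0.026 and 0.023, and TNRC6B was 0.023 in the mean. Between the hairpins, AGO4 was −0.0055 with total-count scaling and −3.6e-05 with at least 10 counts in every library. There, with trends removed, DGCR8 was 0.027, XPO5 0.037, AGO1 0.10, AGO2 0.0041 and AGO3 0.038. With the block as well, DGCR8 was 0.027, XPO5 0.034, AGO1 0.10, AGO2 0.0044, AGO3 0.038 and TNRC6A 0.0060.

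Leaving out single libraries turned the sign of these log2 values. With shLMO2-1, DROSHA ranged from −0.093 to 0.071, AGO1 from −0.0082 to 0.15, AGO3 from −0.20 to 0.13, TNRC6A from −0.27 to 0.33 and TNRC6B from −0.0082 to 0.18. With shLMO2-2, TARBP2 ranged from −0.20 to 0.12, AGO1 from −0.021 to 0.14, AGO2 from −0.097 to 0.20, AGO3 from −0.30 to 0.025 and TNRC6A from −0.36 to 0.24. In the mean, TARBP2 ranged from −0.23 to 0.043, AGO1 from −0.015 to 0.14, AGO2 from −0.038 to 0.26, AGO3 from −0.25 to 0.076, TNRC6A from −0.31 to 0.29 and TNRC6B from −0.10 to 0.043. Between the hairpins, DGCR8 ranged from −0.081 to 0.048, XPO5 from −0.039 to 0.018, DICER1 from −0.048 to 0.057, TARBP2 from −0.052 to 0.27, AGO1 from −0.068 to 0.034, AGO4 from −0.070 to 0.085 and TNRC6A from −0.20 to 0.11.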
